A study of Sus scrofa with 24 samples.

Results

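The collagen chains were taken as every gene of the count table whose Ensembl pig identifier carries a symbol made of COL, a number, A and a number, with at least 1 count in 7 or more of the 24 libraries. A symbol was found for 14857 of the 25880 genes. Of these 38 fitted that form, and 37 passed the count rule: 11 fibrillar chains, 7 chains of basement membranes and 19 others. COL10A1, the network chain of hypertrophic cartilage, had 14 counts in 6 libraries and was left out. COL4A1, COL7A1, COL9A2, COL19A1, COL20A1 and COL26A1 were not analysed here.

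Collagens are the main structural proteins of the extracellular matrix. Each molecule is a trimer of alpha chains, of 1 kind or of several, wound into a triple helix, and the kind of trimer depends on which chains a cell makes together. In adipose tissue fibroblasts and stromal cells make the fibrillar collagens of the septa, while adipocytes, endothelial cells and mural cells are each wrapped in a basement membrane built on type IV collagen. Type VI collagen forms beaded filaments around adipocytes.

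Fat under the skin of the back was sampled in 24 male Iberian piglets, aged 33 days and weaned 5 days earlier. Each litter gave 1 male, so the replicates are separate animals of separate litters. The diets were given to the sows, from gestation day 85 to weaning on day 28, and all 4 diets held all-rac-alpha-tocopheryl acetate, a vitamin E source. The VEHT feed held 100 mg/kg of it with 1.5 mg/kg of hydroxytyrosol, an olive polyphenol, the VE feed held 100 mg/kg alone, the HT feed held 30 mg/kg with 1.5 mg/kg of hydroxytyrosol, and the C feed held 30 mg/kg alone, with 6 piglets per diet. These are added amounts, and the vitamin E that the study measured in the feeds differed by less between diets. After weaning the study lists 1 weaning diet for the piglets.

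Gene counts per library ran from 36614639 to 61919211. All 9 adipocyte markers were read in every library. The 3 libraries G141 (VEHT), G041 and G047 (both C) differed from the rest. Their macrophage markers summed to 8364 to 11091 CPM (counts scaled to a common library size by TMM), against 230 to 2198 in the other 21, and their adipocyte markers to 2685 to 3068 CPM, against 6650.0 to 27860.4. The main results that rest on these 3 libraries are given with and without them. In whole tissue, fewer cells of a type and less RNA per cell cannot be told apart.

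The summed collagen share of gene counts was 1.93% to 4.62% in VEHT (median 2.79%), 2.25% to 7.58% in VE (median 5.43%), 1.34% to 6.12% in HT (median 2.06%) and 0.82% to 4.28% in C (median 2.85%). The mean share was 3.04% ± 1.11 in VEHT, 5.22% ± 2.15 in VE, 3.15% ± 2.10 in HT and 2.80% ± 1.33 in C (SD, n = 6 each), and the ranges of all 4 diets overlapped. In HT 2 libraries, G012 and G066, held 6.12% and 5.52% while the other 4 stayed between 1.34% and 2.22%. Fibrillar chains made up most of the share, with 0.50% to 5.88% of gene counts across the 24 libraries, basement membrane chains took 0.10% to 0.49% and the others 0.19% to 1.33%.

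**Figure D1:**
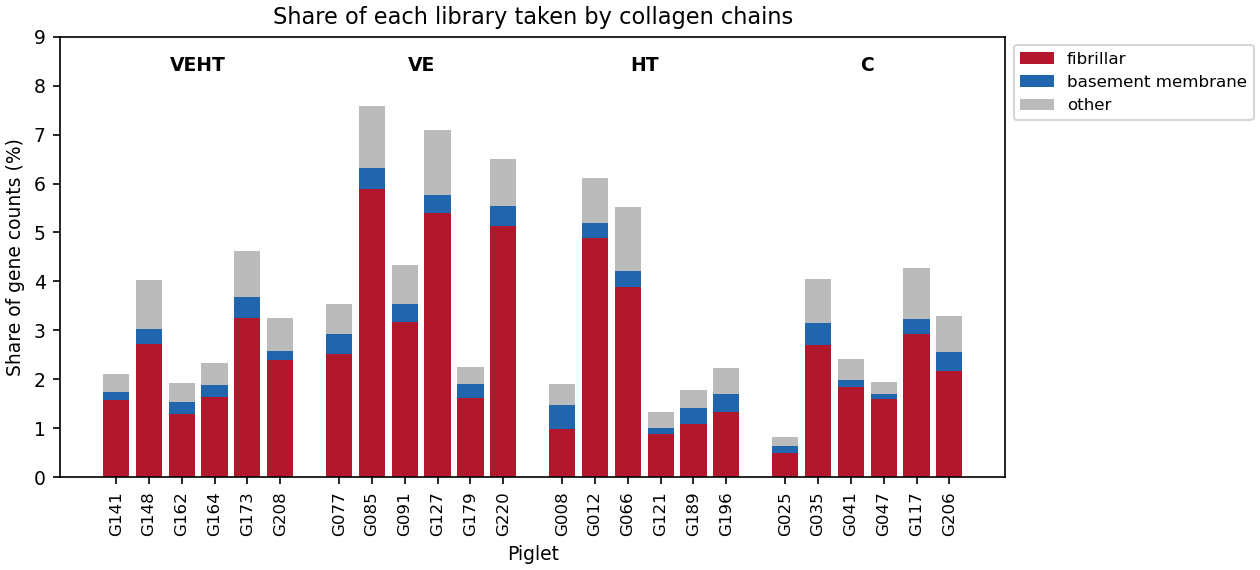
Share of each library's gene counts taken by the 37 collagen chains, in percent, 1 bar per piglet, stacked by class and grouped by maternal diet. VE piglets G085, G127 and G220 and HT piglets G012 and G066 stand highest, between 5.52% and 7.58%, and C piglet G025 lowest, at 0.82%.

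Few chains carried most of this signal. COL3A1, the homotrimeric type III chain, held 28.6% of all collagen counts, COL1A1 22.9% and COL1A2 15.0%, followed by COL4A2 with 6.73%, COL6A3 with 6.68% and COL6A1 with 6.30%. Per kilobase of RefSeq exon, the mean level over 24 libraries was 2097 CPM per kb for COL3A1, 1315 for COL1A1 and 1033 for COL1A2. Then came COL4A2 with 380 CPM per kb, COL6A2 with 312 and COL6A3 with 234. At the other end COL9A1 was at 0.056 CPM per kb. COL6A1 has no RefSeq exon length here and is left out of that order.

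The major fibrillar chains read highest in VE. Type I collagen, the tough fibre of skin, tendon and septa, is built from COL1A1 and COL1A2. COL1A1 ran from 3907 to 10705 CPM in VEHT (median 7011), 5416 to 15937 in VE (median 12668), 2950 to 16870.5 in HT (median 3915) and 1813 to 8180.4 in C (median 6340). COL1A2 ran from 2815 to 6182 CPM in VEHT (median 4559), 4099.8 to 11204 in VE (median 8426), 1837 to 11237 in HT (median 2219.6) and 1299 to 5024 in C (median 4043). COL3A1, which mixes with type I in thin, distensible fibrils, ran from 4275 to 11775 CPM in VEHT (median 8642), 7301 to 27119 in VE (median 16158), 3249 to 21240.0 in HT (median 3982) and 1573 to 10438 in C (median 7673). In each of these 3 chains VE piglets G085, G091, G127 and G220 lay above every C piglet, and VE piglet G179 lay among the C piglets. HT split into the high pair G012 and G066 and 4 low libraries.

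Type V collagen sits inside type I fibrils and sets their width. COL5A1 ran from 243 to 781 CPM in VEHT (median 530.2), 285 to 1263 in VE (median 818), 233 to 916 in HT (median 320.3) and 172.7 to 785 in C (median 463). COL5A2 ran from 434 to 946 CPM in VEHT (median 699), 574 to 2449.9 in VE (median 1298), 402 to 1458 in HT (median 464) and 276 to 1088 in C (median 647). COL5A3, the remaining type V chain, ran from 262 to 589.7 CPM in VEHT (median 395), 504 to 765 in VE (median 615), 199 to 691 in HT (median 318) and 287 to 600.4 in C (median 339.7). COL5A3 had the narrowest spread of these 6 chains within VE, at 615 ± 100.0 CPM (mean and SD, n = 6).

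**Figure D2:**
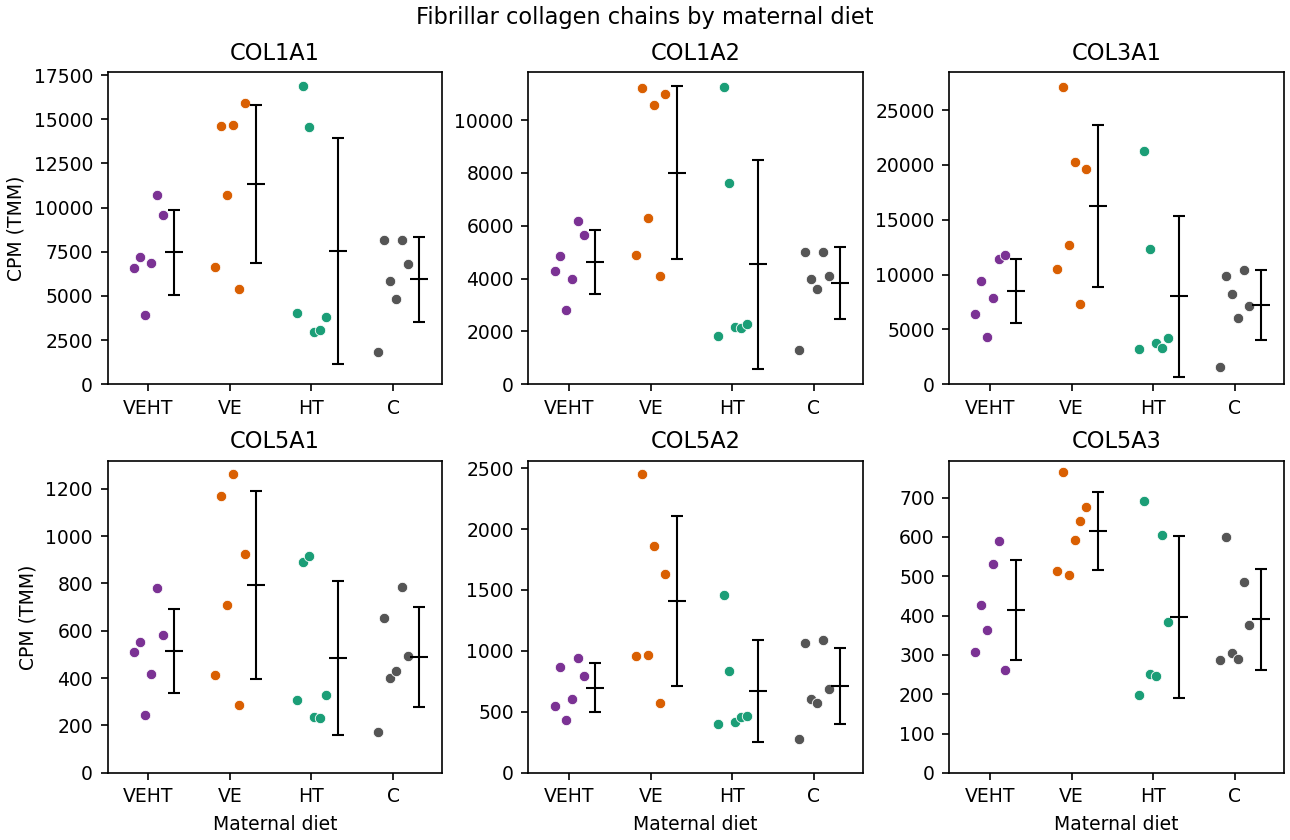
CPM of the 6 chains of collagen types I, III and V by maternal diet, 1 point per piglet, with the mean and SD of 6 piglets drawn to the right of each group. VE holds the highest mean in every panel, and HT shows 2 high libraries over 4 low ones in the type I and III chains.

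The comparison of VE with C asked what the higher vitamin E level did alone. In edgeR's quasi-likelihood test, where a call needs a Benjamini-Hochberg q of at most 0.10 over all genes tested and a fold change of at least 1.5, no chain was called, and neither was any of 17532 genes (0%). At an unadjusted p under 0.05, 11 of 37 chains (29.7%) were higher in VE against 3.34% of all genes, and 0 chains were lower against 8.77% of all genes. The median log2 fold change was 0.65 over the chains and -0.03 over all genes, and 28 of 37 chains were positive. All 11 fibrillar chains were positive, with a median of 0.97.

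The 11 chains were COL1A1, COL1A2, COL3A1, COL5A2, COL5A3 and COL11A1 among the fibrillar ones, COL4A5, COL4A6 and COL15A1 of basement membranes, and COL6A6 and COL14A1. The log2 fold changes of VE over C (edgeR, ± SE) were 1.06 ± 0.391 for COL1A2 (q = 0.325), 1.17 ± 0.471 for COL3A1 (q = 0.359), 0.93 ± 0.417 for COL1A1 (q = 0.404) and 0.65 ± 0.222 for COL5A3 (q = 0.31). DESeq2, the tool the study used, called 5 chains higher in VE, against 0.941% of all genes: COL4A5 (q = 0.037), COL15A1 (q = 0.0465), COL5A3 (q = 0.076), COL1A2 (q = 0.078) and COL4A6 (q = 0.0949). limma voom called none.

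These counts moved with the libraries in the fit. Without C piglets G041 and G047 the same 5 chains that DESeq2 had called, COL1A2, COL4A5, COL4A6, COL5A3 and COL15A1, were higher at an unadjusted p under 0.05 in edgeR (5 of 37, against 3.22% of all genes) and DESeq2 called 0. Their DESeq2 log2 fold changes were then 1.05 for COL1A2 (1.05 with both piglets), 1.02 for COL4A5 (1.34), 1.16 for COL4A6 (1.31), 0.49 for COL5A3 (0.64) and 0.83 for COL15A1 (1.18). In the same edgeR fit 2 chains were lower in VE, COL4A4 and COL23A1, against 4.33% of all genes. Without VE piglets G127 and G220 the count was 4. Fibroblast and stromal progenitor markers moved with the fibrillar chains: their sum over 7 of 8 listed genes ran from 1948 to 3967 CPM in VEHT (median 2892), 1562 to 6583 in VE (median 4458), 1281 to 6137 in HT (median 1953) and 978 to 3811 in C (median 2801). The library with the lowest fibrillar share was also lowest in that sum in VEHT (G162), VE (G179) and C (G025), and the 2 high HT libraries were the 2 highest of their diet. The part of these cells in the result was not tested.

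Type XV collagen, a chondroitin sulfate proteoglycan that bridges basement membranes to the fibres below, showed the clearest shift of the larger chains. COL15A1 (ENSSSCG00000005380, chr1:240718128-240829188) ran from 100.2 to 702 CPM in VEHT (median 327), 537 to 789 in VE (median 673), 214 to 784 in HT (median 328) and 107 to 597 in C (median 275). Of the 6 VE piglets, 4 lay above every C piglet, and the 3 lowest of all were G141 of VEHT with G047 and G041 of C. The log2 fold change of VE over C was 1.19 ± 0.372 in edgeR (unadjusted p = 0.0073, q = 0.31) and 0.83 ± 0.261 without G041 and G047. Against HT it was 0.74 ± 0.296 (q = 0.502).

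The 2 chains of type I collagen are coded on different chromosomes, COL1A1 at chr12:26379087-26397180 on the minus strand and COL1A2 at chr9:74174484-74210407 on the plus strand (RefSeq, Sscrofa11.1), and kept together across piglets. Over the 21 libraries outside G041, G047 and G141, the log2 levels of COL1A1 and COL1A2 had a Pearson r of 0.978 and a Spearman rho of 0.965 (permutation p = 1e-05 each, the smallest that 100000 resamples can give, 2e-05 after Benjamini-Hochberg over 9 pairs), and r was 0.971 without the 2 libraries farthest from the median. The ratio of COL1A1 to COL1A2 per kb stayed between 1.08 and 1.81 in all 24 libraries. That of COL3A1, whose trimers hold no COL1A1, to COL1A1 stayed between 1.04 and 2.39. The correlation of COL1A1 with COL3A1 was planned but not tested. The 250 bases before each annotated start are shown because these genes move together. Capitals mark matches to 3 short motifs on either strand: the CCAAT box, the TATA box (TATAAA) and the GC box (GGGCGG). No matches overlap here.
COL1A1, chr12:26397181-26397430, minus strand: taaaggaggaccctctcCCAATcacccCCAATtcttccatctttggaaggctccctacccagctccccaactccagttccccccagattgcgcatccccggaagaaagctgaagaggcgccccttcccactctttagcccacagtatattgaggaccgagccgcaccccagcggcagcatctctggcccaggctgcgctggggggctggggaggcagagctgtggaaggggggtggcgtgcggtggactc
COL1A2, chr9:74174234-74174483, plus strand: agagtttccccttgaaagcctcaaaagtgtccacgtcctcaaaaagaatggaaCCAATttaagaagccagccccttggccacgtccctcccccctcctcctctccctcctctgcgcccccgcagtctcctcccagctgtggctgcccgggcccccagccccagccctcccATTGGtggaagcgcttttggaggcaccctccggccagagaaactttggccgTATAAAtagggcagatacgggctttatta
Both windows held CCAAT, which 31.9% of the 19559 windows before protein-coding genes hold. TATAAA stood 29 bases before the start of COL1A2 alone, and 9.8% of windows hold it. A match in letters says nothing of binding.

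The other fixed pairs of partner chains, tested over the same 21 libraries, differed in how closely they ran. COL6A1 and COL6A2 had a Pearson r of 0.984 (rho 0.947), COL6A2 and COL6A3 0.975 (rho 0.956), COL6A1 and COL6A3 0.943 (rho 0.892), and COL5A1 and COL5A2 0.933 (rho 0.909), each with a permutation p of 1e-05. COL11A1 and COL11A2 had 0.892 (rho 0.783, permutation p = 2e-05 for r), and COL4A3 and COL4A4 0.766 (rho 0.695, permutation p = 2e-05 for r), which became 0.580 without G066 and G208. COL8A1 and COL8A2, the network chains of vessel walls and cornea, had only 0.370 (rho 0.452, permutation p = 0.1 for r and 0.0404 for rho). Levels on 1 common scale share library size and tissue make-up, which such an r also reflects.

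The main type VI chains, COL6A1, COL6A2 and COL6A3, of the microfilaments around adipocytes, did not separate the diets. COL6A3 ran from 1196 to 2931 CPM in VEHT (median 2239.9), 1058 to 4643 in VE (median 3347), 1189 to 3838 in HT (median 1549) and 567 to 3548 in C (median 1868). COL6A1 averaged 2237 ± 868 CPM in VEHT, 2666 ± 889 in VE, 2202 ± 1368 in HT and 1761 ± 880 in C (SD, n = 6). COL6A2 averaged 1258 ± 447 CPM in VEHT, 1661 ± 745 in VE, 1231 ± 863 in HT and 1058 ± 596 in C (SD, n = 6). Their log2 fold changes of VE over C were 0.59 to 0.65, with an edgeR q of 0.592 to 0.686. COL6A6, a variant of COL6A3, averaged 33.9 ± 18.5 CPM in VEHT, 44.2 ± 22.0 in VE, 29.8 ± 28.6 in HT and 21.3 ± 13.3 in C (SD, n = 6). Its log2 fold change of VE over C was 1.05 ± 0.472 (q = 0.403), and it was 1 of the 11 chains higher in VE at an unadjusted p under 0.05. Without C piglets G041 and G047 COL6A6 was at 0.74 ± 0.478 and did not reach that level. COL6A5, a low gene, was lower in VE than in C at that level in DESeq2, but not in edgeR.

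Type IV collagen builds the sheet of every basement membrane. Its chains pair in fixed ways, COL4A1 with COL4A2 in nearly all tissues, and COL4A3, COL4A4, COL4A5 and COL4A6 in more specialised membranes, where COL4A5 with COL4A6 is known from smooth muscle and skin. COL4A2, the only member of the common pair analysed here, ran from 1389 to 3072 CPM in VEHT (median 1897), 2380.4 to 3219 in VE (median 2951), 1036 to 4614 in HT (median 2482) and 709 to 3525 in C (median 1697). The VE libraries were the most even, with an SD of 329 CPM against 622 in VEHT, 1152 in HT and 1177 in C, and G047 and G041 were the 2 lowest of C. COL4A3 averaged 2.99 ± 2.00 CPM in VEHT, 3.16 ± 2.06 in VE, 2.98 ± 2.17 in HT and 3.29 ± 3.05 in C (SD, n = 6). COL4A4 averaged 1.73 ± 1.18 CPM in VEHT, 2.25 ± 0.828 in VE, 2.44 ± 2.25 in HT and 2.93 ± 2.27 in C (SD, n = 6). These 2 genes lie head to head on chromosome 15 and overlap by 663 bases in RefSeq, as COL4A2 does with COL4A1 by 525 bases, and since no source used here states whether counting used strand, reads from the overlaps may not be assignable to 1 gene.

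COL4A5 and COL4A6 were the only chains called by edgeR in any of the 9 contrasts. COL4A5 (ENSSSCG00000012572, chrX:88958837-89183306, plus strand) ran from 5.64 to 30.2 CPM in VEHT (median 18.8), 22.0 to 79.1 in VE (median 27.8), 12.2 to 57.0 in HT (median 29.2) and 5.18 to 23.3 in C (median 14.3). COL4A6 (ENSSSCG00000012571, chrX:88634925-88750938, minus strand) ran from 1.06 to 5.75 CPM in VEHT (median 3.36), 2.82 to 16.0 in VE (median 3.75), 4.19 to 21.1 in HT (median 5.31) and 0.90 to 3.24 in C (median 2.32). Every HT piglet lay above every C piglet in COL4A6, and 5 of 6 VE piglets lay above every C piglet in COL4A5. VE piglet G179 and HT piglet G189 were the 2 highest in both genes.

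The interaction asked whether the effect of vitamin E differed with hydroxytyrosol in the feed, as the log2 fold change of VEHT over HT minus that of VE over C. It was -2.74 ± 0.722 for COL4A6 (edgeR, unadjusted p = 0.00094, q = 0.0613) and -2.17 ± 0.628 for COL4A5 (unadjusted p = 0.0022, q = 0.078). By median both read higher with either antioxidant alone than in C or in the combination. For COL4A6 the medians of VE (3.75 CPM) and VEHT (3.36 CPM) lay close. In edgeR COL4A6 did not reach an unadjusted p under 0.05 in VEHT over VE, nor did COL4A5 in VEHT over HT. Interaction calls below 0 were made in 48 of 17602 genes (0.273%), against 648 above 0, and 6 of 37 chains were below 0 at an unadjusted p under 0.05 against 3.32% of all genes. Over all 37 chains the interaction was negative in 31, with a median of -0.83 against 0.02 over all genes.

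**Figure D3:**
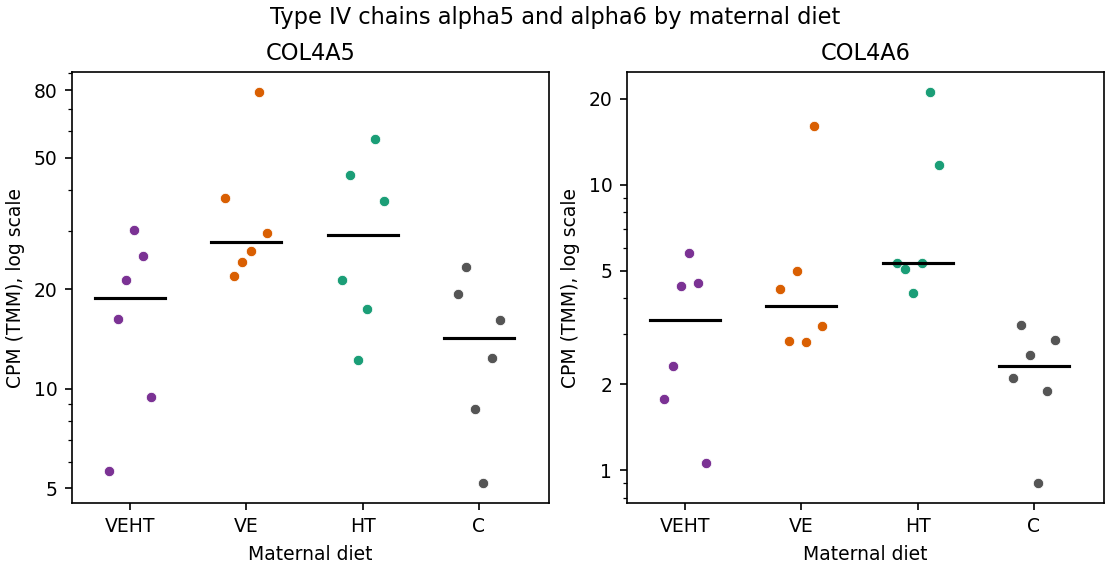
CPM of COL4A5 and COL4A6 on a log scale by maternal diet, 1 point per piglet, with a bar at the median of 6. In COL4A6 the lowest HT piglet (4.19 CPM) lies above the highest C piglet (3.24 CPM), and VE piglet G179 and HT piglet G189 lead both panels.

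The 2 interaction calls moved with the libraries in the fit. Without G041, G047 and G141 the interaction was -2.45 ± 0.786 for COL4A6 and -1.66 ± 0.587 for COL4A5, with q = 0.995 for both and no gene called of 17620. G047 and G141 had the lowest COL4A5 of all 24 libraries. With single libraries left out, COL4A6 stayed called in 20 of 24 fits (lost without G041, G047, G141 or G189) and COL4A5 in 11 of 24. Over those fits the COL4A5 interaction ran from -2.37 to -1.80, with q from 0.048 to 0.22. Smooth muscle and pericyte markers summed to 385 to 1219.6 CPM in VEHT (median 757), 594 to 2392 in VE (median 698), 605 to 1673 in HT (median 1043) and 256 to 993 in C (median 770.4). G179 was at 2392 and G189 at 1489. HT piglet G008 was above G189, at 1673, with COL4A5 at 21.4 CPM and COL4A6 at 5.32. HT piglet G012 was at 605, with COL4A5 at 44.2 CPM. The part of these cells in the result was not tested.

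In the single contrasts COL4A6 was 1.95 ± 0.470 higher in HT than in C on the log2 scale (edgeR, unadjusted p = 0.00121, q = 0.335; DESeq2, q = 0.00422), and DESeq2 called it alone of the 37 chains, against 0.366% of all genes higher in HT. It stayed called without G041 and G047 (DESeq2, log2 fold change 1.80, q = 0.0673). Groups that do not overlap, with HT higher, were found for 1 chain and for 0.12% of all genes. COL4A5 and COL4A6 were the 2 chains of 37 higher in HT at an unadjusted p under 0.05, against 2.52% of all genes, and no gene of 17468 was called by edgeR (0%). COL17A1 had the next smallest p, at -1.62 ± 1.09 (q = 0.55). COL4A5 was 1.13 ± 0.431 higher in HT than in C (q = 0.342) and 1.35 ± 0.399 higher in VE than in C (q = 0.31). Without G041 and G047 it was 0.81 ± 0.408 higher in HT in edgeR, and did not reach an unadjusted p under 0.05. In that fit COL12A1 was lower in HT at that level, at -0.99 ± 0.423, as were 619 of 17612 genes. COL4A6 was 1.32 ± 0.478 higher in VE than in C (q = 0.318), and 0.67 without G179.

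In the Sscrofa11.1 annotation of RefSeq the 2 genes run away from each other on chromosome X, with 207899 bases between their starts. Their log2 levels had a Pearson r of 0.811 over the 21 libraries (permutation p = 3e-05, rho 0.675, p = 0.00121), and 0.663 without G179 and G189. Per kb, COL4A5 was 2.49 to 8.55 times COL4A6, lowest in G189. The windows before both annotated starts are shown as for type I collagen, since these are the genes called together.
COL4A5, chrX:88958587-88958836, plus strand: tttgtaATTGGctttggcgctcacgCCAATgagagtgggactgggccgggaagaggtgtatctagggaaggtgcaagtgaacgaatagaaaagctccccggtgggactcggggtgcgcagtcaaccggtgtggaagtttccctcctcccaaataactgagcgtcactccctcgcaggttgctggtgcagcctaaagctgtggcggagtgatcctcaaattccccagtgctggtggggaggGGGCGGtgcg
COL4A6, chrX:88750939-88751188, minus strand: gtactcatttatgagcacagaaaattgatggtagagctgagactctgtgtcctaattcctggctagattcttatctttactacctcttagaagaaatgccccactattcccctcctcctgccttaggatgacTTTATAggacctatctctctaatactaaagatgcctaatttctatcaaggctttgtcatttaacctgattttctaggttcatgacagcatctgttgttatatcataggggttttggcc
The COL4A5 window held CCAAT on both strands and GGGCGG, which 45.9% of windows hold, and the COL4A6 window held TATAAA on the opposite strand only. The 2 windows shared none of the 3 motifs. Both windows and the distance rest on the annotated starts. Whether transcription begins there in fat was not tested, so the windows may not be the promoters in use.

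COL18A1, the source of endostatin and a heparan sulfate proteoglycan of vascular basement membranes, did not follow COL15A1. It averaged 183 ± 67.1 CPM in VEHT, 153 ± 34.1 in VE, 135 ± 54.3 in HT and 186 ± 101 in C (SD, n = 6), with its highest level, 384 CPM, in C piglet G041. Its log2 fold change of VE over C was -0.29 ± 0.294 (edgeR, q = 0.766), and the sign turned to 0.087 ± 0.204 without G041 and G047 and to 0.061 without G041 alone.

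Adding hydroxytyrosol to the high vitamin E feed, VEHT over VE, gave lower readings in most chains. This contrast shares the VE libraries with VE over C, so the 2 are not independent. At an unadjusted p under 0.05 edgeR found 14 of 37 chains (37.8%) lower in VEHT against 3.17% of all genes, and 1 chain higher, COL6A5, against 5.87%, while no gene of 17525 was called (0%). The 14 were COL1A2, COL2A1, COL3A1, COL5A2, COL5A3, COL11A1, COL11A2, COL4A2, COL4A5, COL15A1, COL9A3, COL12A1, COL16A1 and COL28A1. In all 33 of 37 chains were below 0, with a median of -0.60 against 0.03 over all genes. The log2 fold change was -1.02 ± 0.342 for COL5A2 (q = 0.455), -0.58 ± 0.208 for COL5A3 (q = 0.468), -0.94 ± 0.373 for COL3A1 (q = 0.493) and -0.80 ± 0.324 for COL1A2 (q = 0.501). Without VE piglets G127 and G220 the count of 14 became 2, COL4A5 and COL9A3, and without G220 alone it was 5. Without G141 it was 10.

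**Figure D4:**
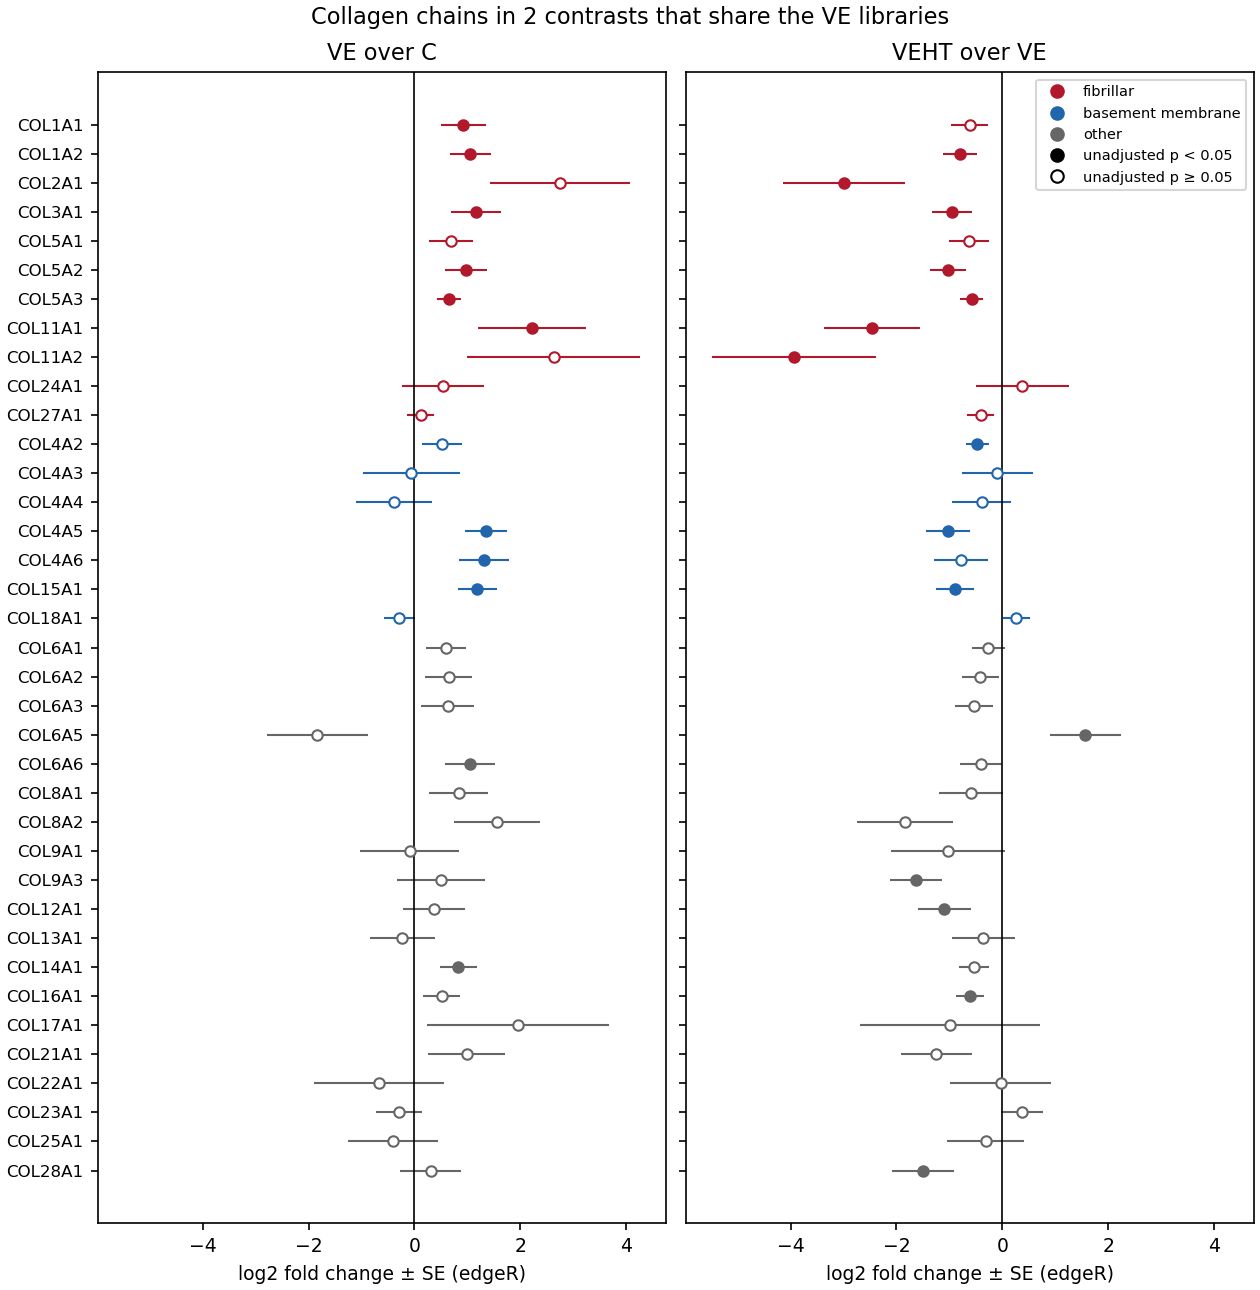
Log2 fold changes with their standard errors (edgeR) of the 37 chains in VE over C and VEHT over VE, grouped by class, filled where the unadjusted p is under 0.05. 11 chains are filled to the right of 0 in VE over C and 14 to the left in VEHT over VE, none called at q of at most 0.10.

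COL9A3, a chain of the fibril-associated type IX collagen of cartilage, was the only chain DESeq2 called in VEHT over VE, against 0.291% of all genes called lower. It ran from 0.17 to 0.50 CPM in VEHT (median 0.22), 0.16 to 1.47 in VE (median 0.94), 0.26 to 2.70 in HT (median 0.38) and 0 to 1.34 in C (median 0.55). VEHT over VE stood at -1.63 ± 0.493 on the log2 scale (edgeR, q = 0.44), and DESeq2 gave q = 0.0707. It is a low gene, with 747 counts over all 24 libraries, and without G141 DESeq2 did not call it, at a log2 fold change of -1.53 (q = 0.226).

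The combination set against C showed no chain past a test. In VEHT over C 18 of 37 chains were positive, the median log2 fold change was -0.02 for the chains and -0.02 for all genes, and no chain reached an unadjusted p under 0.05. edgeR called no gene of 17607 (0%), and 130 genes were higher and 239 lower at an unadjusted p under 0.05. Without G141, G041 and G047, 4 chains were lower in VEHT at that level, COL9A3, COL12A1, COL13A1 and COL28A1, against 3.08% of all genes, and none was called. DESeq2 without these libraries gave 6 lower, COL4A4 and COL11A2 besides, against 3.72% of all genes. The smallest p-values among the chains were those of COL28A1 (-1.19 ± 0.715), COL6A6 (0.66 ± 0.453) and COL9A3 (-1.14 ± 0.826), with q = 1.00 for each.

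Between the other diets and in the main effects no gene was called by edgeR (0% of 17469 in VEHT over HT, 0% of 17397 in VE over HT and 0% of 17602 in both main effects). In VEHT over HT 3 chains were lower at an unadjusted p under 0.05, COL4A6, COL11A2 and COL9A3, against 1.56% of all genes. COL17A1 was higher, against 6.33% of all genes. On the log2 scale COL4A6 was at -1.43 ± 0.503 there (q = 0.583), COL11A2 at -3.61 ± 1.49 (q = 0.598) and COL9A3 at -1.42 ± 0.649 (q = 0.628). In VE over HT COL5A2 (1.06 ± 0.415) and COL15A1 were higher, against 4.91% of all genes. That count of 2 became 5 with DESeq2 (5.51% of all genes), 11 with limma voom (6.24% of all genes), 10 without HT piglet G012, 0 without HT piglet G008, 1 without VE piglet G085, 4 without either G066 or G077, and 0 without G127, G220 and G066. Over both hydroxytyrosol levels, vitamin E gave COL5A2 0.52 ± 0.271 and COL15A1 0.53 ± 0.296 (q = 0.999 each), and over both vitamin E levels hydroxytyrosol gave COL12A1 -0.80 ± 0.385 (q = 0.787), COL5A2 -0.55 ± 0.271 (q = 0.787) and COL4A6 0.59 ± 0.356 (q = 0.806). COL12A1, a fibril-associated chain of dense connective tissue, averaged 84.4 ± 51.0 CPM in VEHT, 178 ± 111 in VE, 95.5 ± 55.4 in HT and 137 ± 94.2 in C (SD, n = 6).

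The cartilage chains COL2A1, COL11A1 and COL11A2 were highest in the same few libraries. COL2A1, the main collagen of cartilage, and COL11A1 and COL11A2, which template its fibrils, are hardly made by fat. COL11A2 ran from 0 to 4.67 CPM in VEHT (median 1.66), 0.02 to 105 in VE (median 9.13), 0.20 to 130 in HT (median 2.10) and 0 to 14.7 in C (median 1.27). COL11A1 ran from 0.30 to 8.16 CPM in VEHT (median 4.58), 2.74 to 63.6 in VE (median 11.4), 2.45 to 38.1 in HT (median 6.24) and 0.11 to 14.5 in C (median 3.31). COL2A1 ran from 0 to 1.37 CPM in VEHT (median 0.47), 0.22 to 14.3 in VE (median 1.26), 0.12 to 7.73 in HT (median 0.38) and 0 to 3.07 in C (median 0.22). VE piglets G127 and G220 and HT piglet G066 were the 3 highest libraries in all 3 chains. The type IX chains of cartilage followed this only in part. COL9A1 (1.15 CPM) and COL9A3 (2.70 CPM) were highest in G066. Within VE they were highest in G179 (0.49 and 1.47 CPM), with G127 at 0.074 and 0.81 and G220 at 0.28 and 1.06.

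The same 3 libraries had cartilage and tendon marker sums, over the 6 genes ACAN, COMP, TNMD, SOX9, MATN3 and SCX, of 147 to 257 CPM, against 1.29 to 51.5 in the other 21. COMP reached 199.9 CPM and TNMD 50.7. The others stayed low, with highest levels of 5.67 CPM for SOX9, 3.55 for SCX, 2.07 for ACAN and 0.64 for MATN3. By diet the sum ran from 1.29 to 9.19 CPM in VEHT, 2.74 to 257 in VE, 2.34 to 147 in HT and 1.54 to 51.5 in C. DESeq2 called the interaction of COL11A1 (-3.73, q = 0.0447), COL11A2 (-6.20, q = 0.0546) and COL2A1 (-4.62, q = 0.0639) besides the 2 type IV chains, 5 of 37 in all against 0.761% of all genes, and edgeR called none of these 3 (q = 0.18, 0.191 and 0.215). In edgeR these 3 chains were below 0 at an unadjusted p under 0.05 with all libraries, and not without G066, G127 and G220. No gene was called in that fit, and DESeq2 was not run without those libraries. DESeq2 called no chain without G041, G047 and G141, of which G047 and G141 were at 0 in COL2A1 and COL11A2. The part of cartilage or tendon in these values was not tested.

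**Figure D5:**
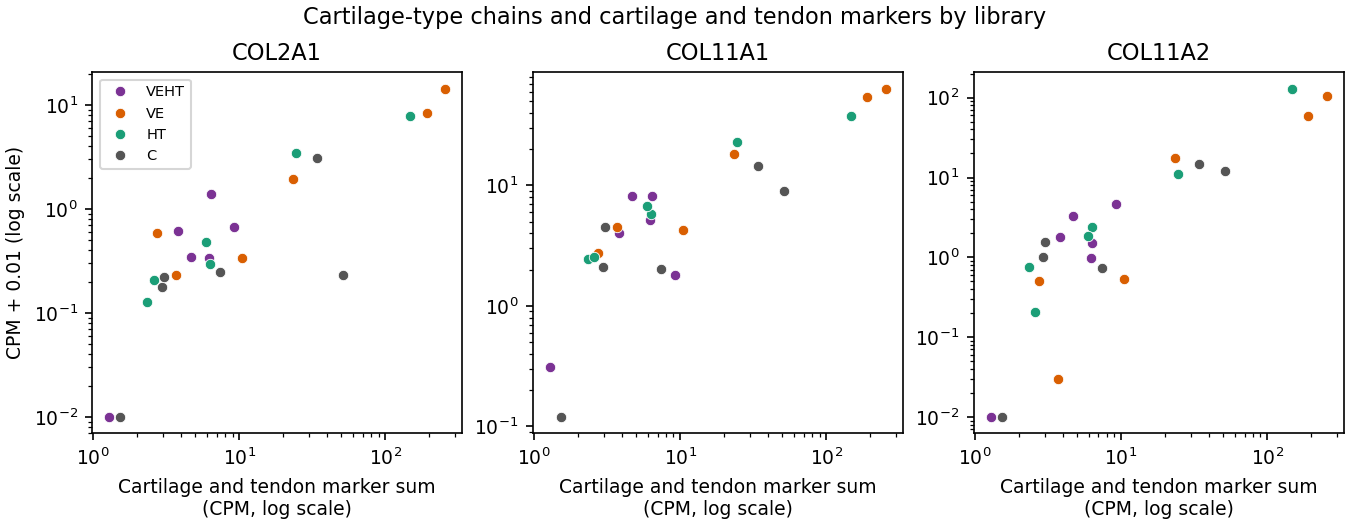
CPM (with 0.01 added) of COL2A1, COL11A1 and COL11A2 against the summed CPM of 6 cartilage and tendon markers, both on log scales, 1 point per piglet and coloured by maternal diet. VE piglets G220 and G127 and HT piglet G066 lie at the right, with marker sums of 147 CPM or more, and are highest in all 3 chains.

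COL17A1, the transmembrane collagen of hemidesmosomes in skin, was likewise set by few libraries. It ran from 0.18 to 27.2 CPM in VEHT (median 1.61), 0.02 to 102 in VE (median 0.68), 0.24 to 5.00 in HT (median 0.59) and 0.39 to 14.4 in C (median 0.66). VE piglet G179 alone held 102 CPM, and the next VE piglet 0.90. Its log2 fold change was 3.63 ± 1.68 in VE over HT (q = 0.523), 2.58 ± 1.16 in VEHT over HT (q = 0.624) and 2.29 ± 1.10 for vitamin E over both hydroxytyrosol levels (q = 0.999). Without G179 the first was -1.52 and the last -0.28. The 3 matched keratinocyte markers, KRT1, DSP and TP63, summed to 103 CPM in G179, 143 in G162 and 112 in G025, the 3 highest sums. VEHT piglet G173, with more COL17A1 (19.9 CPM) than G025 (14.4 CPM), had a sum of 69.3. DSP made up most of a typical sum, with a median of 47.5 CPM against 0.45 for TP63. KRT1 was at 0 in 19 of 24 libraries, and the part of skin in the result was not tested.

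The remaining chains are given by their ranges. COL14A1, a fibril-associated chain of fibroblasts and 1 of the 11 higher in VE at an unadjusted p under 0.05, ran from 157 to 1209.8 CPM over the 24 libraries and COL16A1 from 50.0 to 257. COL28A1, known from nerve, ran from 0.77 to 46.8 CPM, COL8A1 from 1.93 to 99.2 and COL27A1 from 7.85 to 22.0, the narrowest range of all 37 at 2.80-fold. COL22A1, found at muscle-tendon junctions, ran from 0.044 to 13.4 CPM and was highest in C piglet G025. The others, COL6A5, COL8A2, COL9A1, COL13A1, COL21A1, COL23A1, COL24A1 and COL25A1, had means under 5 CPM, from 0.22 for COL9A1 to 4.88 for COL21A1.

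The genes that make and cross-link collagen were read from a list of 34, of which 31 were matched by symbol to an identifier. In VE over C 7 of 31 were higher at an unadjusted p under 0.05 and 0 lower, against 3.34% and 8.77% of all genes, with a median log2 fold change of 0.47. DESeq2 called 3 of them higher in VE, against 0.941% of all genes. PCOLCE, which enhances the cleavage of procollagen ends, averaged 479 ± 85.1 CPM in VEHT, 662 ± 114 in VE, 482 ± 187 in HT and 373 ± 92.3 in C (SD, n = 6), at a log2 fold change of VE over C of 0.82 ± 0.213 (edgeR, q = 0.31; DESeq2, q = 0.0089). SERPINH1, the collagen chaperone HSP47, averaged 602 ± 89.7 CPM in VEHT, 819 ± 125 in VE, 619 ± 191 in HT and 534 ± 139 in C (SD, n = 6), at 0.62 ± 0.205 (edgeR, q = 0.31; DESeq2, q = 0.0547). P3H4, which helps lysyl hydroxylation, was at 0.79 ± 0.244 (edgeR, q = 0.31; DESeq2, q = 0.0608). Without C piglets G041 and G047 DESeq2 still called PCOLCE (q = 0.0737) and SERPINH1 (q = 0.0459) but not P3H4 (q = 0.283).

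In VEHT over VE 6 of the 31 were lower at an unadjusted p under 0.05 and 0 higher, against 3.17% and 5.87% of all genes. The 6 were PCOLCE, SERPINH1, PLOD2, SPARC, ADAMTS2 and LOXL2. In HT over C 1 was lower, ADAMTS14, an aminopropeptidase of procollagen, at -1.35 ± 0.411 (edgeR, q = 0.335; DESeq2, q = 0.0351), against 10% of all genes lower. It is a low gene, with means of 0.70 CPM in HT and 1.77 in C. Without C piglets G041 and G047 DESeq2 did not call it, at a log2 fold change of -1.16 (q = 0.544). In VEHT over C none of the 31 passed in either direction. Of 11 collagen receptors 10 were matched by symbol to an identifier. LAIR1 was not matched and was not analysed here, though the study lists it among the pathway molecules of its C and VE contrast. Only OSCAR, a receptor of myeloid cells, was called by edgeR among the 10, in the interaction (6.52 ± 1.72, q = 0.0613). In all 648 of 17602 genes were called above 0 there. The OSCAR value was 0.81 ± 1.06 (q = 0.995) without G041, G047 and G141, the libraries with the highest macrophage marker sums. DESeq2 also called OSCAR lower in VE and in HT than in C, as it did 713 of 17532 and 676 of 17468 genes. It did not call OSCAR without those libraries. No integrin or discoidin domain receptor of the list was called.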

How the data were processed

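RNA sequencing of dorsal subcutaneous fat gave 24 libraries, 6 per maternal diet. The authors deposited raw read counts for each Ensembl gene, made with Trim Galore, HISAT2 and HTSeq on Sscrofa11.1; annotation release, strand setting and versions are not given in the sources used here. Entries that name no gene were left out of library sizes (8.31% to 16.5% had no feature). Column names carry animal and diet, from which groups were taken, and 0 columns were without a sample.

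Genes at 0 in at least 75% of the libraries fitted were dropped, and the rest were tested with edgeR 4.0.16 (TMM, quasi-likelihood F test, Benjamini-Hochberg over all genes tested), by pairs of diets or in a factorial model of 24 libraries. A call needed q of at most 0.10 and a fold change of at least 1.5 (interaction: q alone), as in the study, and standard errors are the log2 fold change over the square root of F. DESeq2 1.42.0 and limma 3.58.1 voom were alternatives, with other scalings, filters and thresholds, and each library left out. Fits without G066, G127 and G220, with mean skeletal muscle marker level as covariate, and DESeq2 without G041, G047 and G141 were added after the values were seen. The functions were tested on simulated data.

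CPM used TMM-scaled totals, and levels between genes were divided by RefSeq exon length, in place of the coding length first planned. Correlations used log2(CPM + 0.5). With 6 animals per diet and 36614639 counts or more per library, the spread between piglets, not counting, sets the precision for most chains. Members and lists were chosen with earlier results of these data known. Full values were given for the chains of types I, III, IV, V, VI (COL6A1 to COL6A3), XV and XVIII, for chains called by any tool, and for the 3 chains of smallest edgeR p in each contrast. Symbols came from a RefSeq-based table, as did positions and sequences (Sscrofa11.1). Of 12 marker lists, those that moved with a result are given beside it.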

Additional observations from a re-analysis of the deposited data

Results flagged for a closer look

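In 21 of 152 groups tested (37 chains and their summed share, each in 4 diets), 1 piglet lay far from the other 5 of its diet, always above them. The rule flags about 1 in 20 groups of normally distributed values. CPM need not be so distributed, and the groups share the same 24 libraries, so that rate is no yardstick for the 21. VE piglet G179 was such a library for COL4A5 (79.1 CPM, next 37.9), COL4A6 (16.0 CPM, next 5.00), COL17A1 (102 CPM, next 0.90) and COL22A1 (8.95 CPM, next 1.56). HT piglet G066 was for COL9A3 (2.70 CPM, next 0.55), COL11A2 (130 CPM, next 10.97), COL28A1 (46.8 CPM, next 16.7), COL8A2 (10.5 CPM, next 4.20) and COL9A1 (1.15 CPM, next 0.26). HT piglet G012 was for COL6A6 (87.5 CPM, next 24.3), COL8A1 (97.8 CPM, next 31.4) and COL21A1 (13.4 CPM, next 5.05), and VEHT piglet G173 for COL6A6 (69.8 CPM, next 34.2) and COL9A1 (0.44 CPM, next 0.15). HT piglet G196 held 5.00 CPM of COL17A1 (next 1.58), HT piglet G189 20.7 CPM of COL27A1 (next 14.5) and VE piglet G077 3.53 CPM of COL25A1 (next 1.26). C piglet G025 held 3.07 CPM of COL2A1 (next 0.24) and 13.4 CPM of COL22A1 (next 2.59), C piglet G206 held 19.3 CPM of COL6A5 (next 3.68) and C piglet G041 held 384 CPM of COL18A1 (next 184).

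The effect of vitamin E differed between the hydroxytyrosol levels for COL4A6 (interaction -2.74 on the log2 scale) and COL4A5 (-2.17), by edgeR's test of the difference itself (q = 0.0613 and q = 0.078). Neither was called without G141, G041 and G047.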

How the results depend on the processing

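Over the alternatives, 1009 log2 fold changes kept direction and side of the threshold, 12 passed it anew, 27 no longer did and 7 reversed. COL17A1 reversed in VE over HT (-1.19 with limma voom, -1.52 to 4.65 with single libraries left out, lowest without G179) and for vitamin E (-0.13 with limma voom, -0.28 to 2.80 with single libraries left out). COL18A1 reversed in VE over C (0.087 in edgeR and 0.084 in DESeq2 without G041, G047 and G141, -0.43 to 0.061 with single libraries left out). The cause was not tested. Chains called in VE over C became 5 with DESeq2 (2 at q of at most 0.05). In HT over C DESeq2 called 1, also 1 at q of at most 0.05 and 1 without G041, G047 and G141, and in VEHT over VE it called 1. Chains called in the interaction became 5 with DESeq2, and 0 with DESeq2 without G041, G047 and G141, 0 with limma voom, 0 at q of at most 0.05, 0 with the muscle covariate, 0 without G041, G047 and G141, 0 without G066, G127 and G220, and 0 to 3 with single libraries left out. Chains higher at an unadjusted p under 0.05 in VE over C became 7 with DESeq2 without G041, G047 and G141, 5 in edgeR without them, 4 without G066, G127 and G220, and 5 to 13 with single libraries left out. In HT over C they became 1 without G041, G047 and G141, and 1 to 3 with single libraries left out. Chains lower in VEHT over VE became 8 with all 24 libraries in 1 fit, 2 without G066, G127 and G220, and 5 to 18 with single libraries left out. Chains higher in VE over HT became 5 with DESeq2, 11 with limma voom, 1 with the muscle covariate, 0 without G066, G127 and G220, and 0 to 10 with single libraries left out. Chains lower in VEHT over HT became 1 with limma voom, 1 with the muscle covariate and 1 to 4 with single libraries left out. Chains below 0 in the interaction became 3 with limma voom and 3 without G066, G127 and G220, and 4 to 8 with single libraries left out. With all 24 libraries r of COL8A1 and COL8A2 was 0.597. The covariate, the DESeq2 fits at the stricter q or without libraries, and the fit without G066, G127 and G220 were chosen after seeing the data.

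No paired analysis was possible because the columns of the count table carry animal numbers and diets and none of the replicate numbers of the labels. The study describes no pairing of piglets across diets: sows were allotted to diet groups, and each piglet came from a separate litter. Replicate numbers shared between diets therefore need not mark pairs. With 6 piglets per diet, spread between animals limits the precision, and chains under 1 CPM rest on few counts.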
